A study of Mus musculus with 24 samples.

Results

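The genes described here encode the sensor, the ubiquitin ligase and the partner proteins of the Keap1-Nrf2 pathway. They are Keap1, Nfe2l2, Nfe2l1, Cul3, Rbx1, Bach1, Sqstm1, Mafg, Mafk and Maff, 10 of 18193 genes with a probe set of their own on the arrays. All their probe sets that the platform annotation assigns to that gene alone were used, 19 of 45037. The genes were listed by name and not by a cut on their measured values, but with earlier results of these data known.

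Keap1 is the substrate adaptor of an E3 ubiquitin ligase that is built on the scaffold Cul3 and the RING protein Rbx1. In unstressed cells this ligase marks the transcription factor Nrf2, the product of Nfe2l2, for degradation, and when Keap1 is modified or lost Nrf2 accumulates and pairs with a small Maf protein (Mafg, Mafk or Maff) on antioxidant response elements. Bach1 competes for these elements as a repressor, Nfe2l1 encodes the related factor Nrf1, and Sqstm1 encodes p62, an autophagy receptor that binds Keap1. In liver the pathway is known for the control of detoxification and antioxidant genes.

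Livers of male C57BL6/J mice were profiled, with 1 array per mouse and 8 arrays per group. The mice were 8 weeks old at the start and received for 7 weeks a Western diet, a high-fat diet with 6% sucrose in the drinking water, together with a weekly tail vein injection of 1 mg per kg of siRNA. The groups were siKeap1-1 and siKeap1-2, 2 chemically modified siRNAs against Keap1, and siControl, a scrambled siRNA, so that all mice shared the diet and the injections. Per the methods, the siRNAs were packed in lipid nanoparticles that reach mainly hepatocytes, and each group held 4 fed and 4 fasted mice, but the labels do not say which.
The values are log2 signals from RMA (robust multi-array average), so that a difference of 1 is a doubling. Each difference is given with its standard error from a limma fit across all probe sets, and adjusted p-values are those of Benjamini and Hochberg over all 45037. A change was called at an adjusted p under 0.05.

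The array medians lay between 5.84 and 5.96, and arrays of the same group correlated between 0.9885 and 0.996 across probe sets. Neither the control arrays nor those with siKeap1-1 were uniform. The signal of the 18S ribosomal RNA probe set was 10.45 to 11.12 with siKeap1-2. With siKeap1-1 it was 10.17 to 10.44 in replicates 1 to 3 and 11.17 to 11.43 in replicates 4 to 8. The siControl arrays were split in the opposite direction, with 10.34 to 10.77 in replicates 1 to 3 and 8.86 to 9.54 in replicates 4 to 8. The difference between the 3' and the 5' probe sets of Gapdh, a measure of RNA integrity and labelling, was 1.06 to 1.28 in the siRNA groups, against 1.33 to 1.47 in siControl replicates 4 to 8 and 1.14 to 1.2 in the other controls. Within siKeap1-1 it was 1.23 to 1.27 in replicates 1 to 3 and 1.06 to 1.21 in replicates 4 to 8. The 7 measured hepatocyte markers had a mean log2 signal of 14.08 to 14.31 over all arrays, and 4 markers of muscle, kidney and pancreatic islets of 3.92 to 4.54, so that the arrays carried the liver genes that the labels call for. In whole liver, fewer cells of a type and less RNA per cell cannot be told apart.

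Keap1, the targeted gene, fell with both siRNAs. At its brighter probe set the log2 signal was 7.21 at the lowest, 7.47 at the median and 7.93 at the highest with siKeap1-1. With siKeap1-2 it was 8.03, 8.23 and 8.59, and with siControl 9.33, 9.57 and 10.03. The 3 groups did not overlap (0.127% of all probe sets did not overlap between the siRNAs), and every mouse given siKeap1-1 was below every mouse given siKeap1-2, which in turn was below every control. The log2 difference from siControl was -2.13 with siKeap1-1 (standard error 0.11, adjusted p = 2.28e-12 by limma), which left 22.9% of the control signal (95% confidence interval 19.4 to 26.9%). With siKeap1-2 it was -1.36 (standard error 0.11, adjusted p = 1.89e-08), which left 38.8% (33 to 45.8%). By an exact two-sided permutation test over all 12870 splits of the arrays both comparisons had p = 0.000155, the smallest value that 8 against 8 arrays can give.
The siRNAs also differed from each other. Keap1 was lower with siKeap1-1 than with siKeap1-2 by a log2 difference of -0.76 (standard error 0.11, adjusted p = 0.0022 by limma), so that 58.9% of the siKeap1-2 signal was left (50 to 69.4%). It was the single member probe set called between the siRNAs, 1 of 19, where 0.162% of all probe sets were called.

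**Figure D1:**
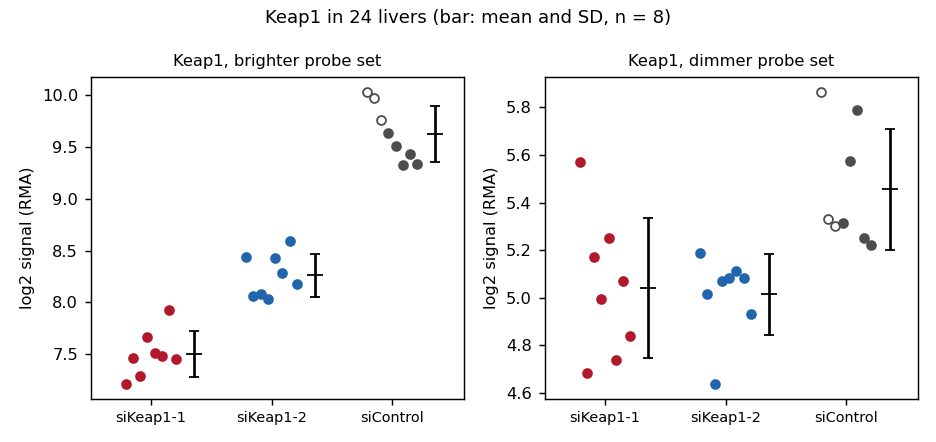
Log2 signal of the 2 Keap1 probe sets in each liver, with siKeap1-1, siKeap1-2 and siControl from left to right. Points are single arrays, open points are siControl replicates 1 to 3, and bars give the mean and SD of 8 arrays. At the brighter probe set the groups are separate, between 7.21 and 7.93, between 8.03 and 8.59, and between 9.33 and 10.03.

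A further Keap1 probe set gave a much smaller difference. Its log2 signal was 4.68, 5.03 and 5.57 (lowest, median and highest) with siKeap1-1, 4.64, 5.08 and 5.19 with siKeap1-2 and 5.22, 5.32 and 5.87 with siControl. The siKeap1-2 arrays lay below all controls, while those with siKeap1-1 overlapped with them. The log2 difference from siControl was -0.42 with siKeap1-1 (adjusted p = 0.0262 by limma) and -0.44 with siKeap1-2 (adjusted p = 0.026). This probe set had its mean at the 40.5th percentile of all probe sets, below the array medians.
These last calls were not stable. The one with siKeap1-1 was lost without siKeap1-1 replicate 2, 6 or 8 or siControl replicate 1 or 6 (log2 difference -0.39 to -0.36, adjusted p = 0.0523 to 0.0589), and that with siKeap1-2 without siKeap1-2 replicate 3 or siControl replicate 6 (-0.39 in both cases, adjusted p = 0.0547 and 0.0596). With the 18S covariate, with the Gapdh covariate and against siControl replicates 1 to 3 alone, neither was called. At the brighter probe set siControl replicates 4 to 8 had 9.33 to 9.64 and siControl replicates 1 to 3 had 9.76 to 10.03. Against replicates 4 to 8 alone the differences there were -1.95 and -1.19 with siKeap1-1 and siKeap1-2, and against replicates 1 to 3 alone -2.42 and -1.66, all of them called.

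Over the whole set, 4 of 19 member probe sets were called with siKeap1-1 (1 higher, 3 lower), where 8.99% of all probe sets were called (4.51% higher, 4.48% lower). With siKeap1-2 it was 5 of 19 (1 higher, 4 lower), where 6.1% of all were called (3.15% higher, 2.96% lower). Without the targeted Keap1, 2 of the 17 other probe sets (11.8%) were called with siKeap1-1 and 3 of 17 (17.6%) with siKeap1-2. The median log2 difference of the 19 probe sets was 0.09 with siKeap1-1 and -0.03 with siKeap1-2, beside 0.02 and 0.003 over all probe sets. Groups did not overlap for 2 of 19 probe sets with siKeap1-1, those of Keap1 and Nfe2l2 with the higher signal, where 1.45% of all did not overlap. With siKeap1-2 they did not overlap for the 2 Keap1 probe sets, where 1.21% of all did not. Both siRNAs were compared with the same 8 control arrays, so that agreement between them is not independent.

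**Figure D2:**
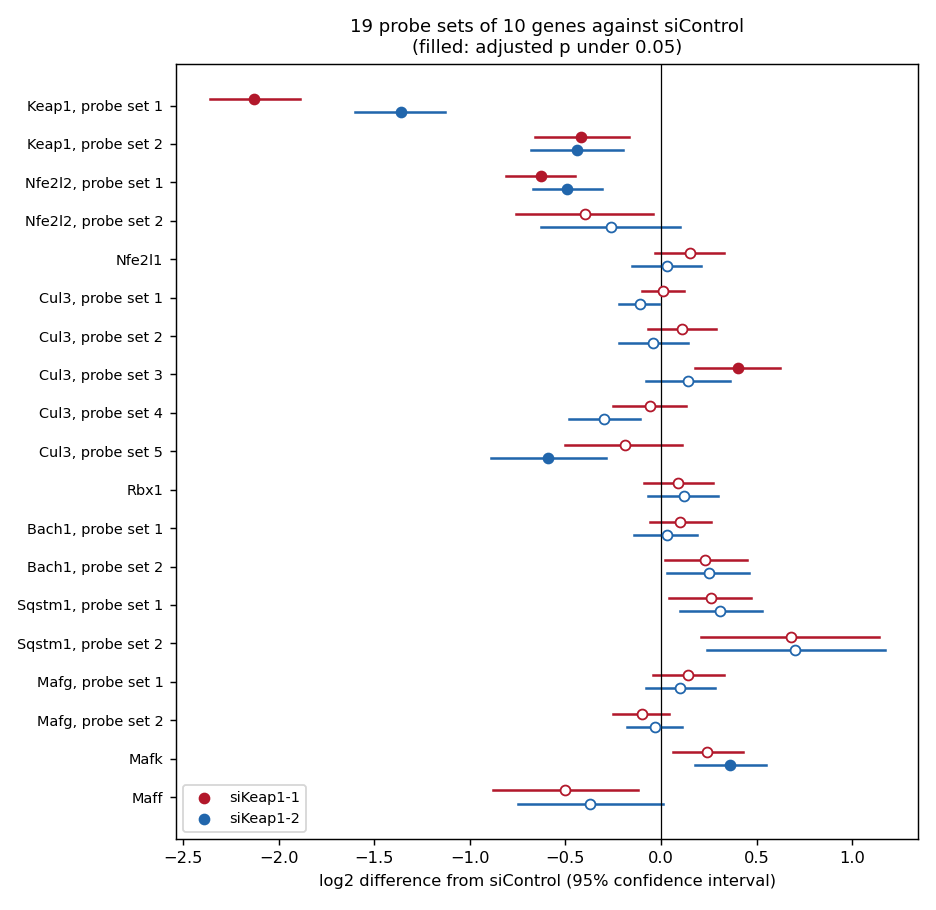
Log2 difference from siControl of all 19 probe sets, with siKeap1-1 in red and siKeap1-2 in blue below it. Points are limma estimates, lines their 95% confidence intervals, and filled points have an adjusted p under 0.05. Apart from Keap1 all estimates lie between -0.63 and 0.70.

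Nfe2l2, the gene of Nrf2 itself, was lower with both siRNAs at the mRNA level. At its brighter probe set the log2 signal was 10.66, 10.81 and 11.02 (lowest, median and highest) with siKeap1-1, 10.69, 11 and 11.09 with siKeap1-2 and 11.06, 11.42 and 11.89 with siControl. No siKeap1-1 array reached the lowest control, whereas with siKeap1-2 the groups touched at their ends. The log2 difference from siControl was -0.63 with siKeap1-1 (standard error 0.09, adjusted p = 4.14e-05 by limma), 64.6% of the control signal (56.9 to 73.2%). With siKeap1-2 it was -0.49 (standard error 0.09, adjusted p = 0.00117), 71.1% of the control signal (62.7 to 80.6%).
Unlike Keap1, Nfe2l2 was not called between the siRNAs. Its difference between siKeap1-1 and siKeap1-2 was -0.14 (95% confidence interval -0.32 to 0.04, adjusted p = 0.663 by limma). The dimmer probe set had lower means with siRNA than with siControl but did not pass. Its log2 signal spanned 7.58 to 9.10 with siKeap1-1, 8.12 to 9.03 with siKeap1-2 and 8.59 to 9.32 with siControl, with differences of -0.40 (adjusted p = 0.163) and -0.26 (adjusted p = 0.423).
The Nfe2l2 call depended on the treatment of the 18S signal in 1 case. When the 18S signal entered the fit as a covariate the difference was -0.56 with siKeap1-1 (adjusted p = 0.0112 by limma) and -0.42 with siKeap1-2 (adjusted p = 0.136), so that the second was no longer called. Against siControl replicates 1 to 3 alone it was -0.59 and -0.45 (adjusted p = 0.00137 and 0.0235), and against replicates 4 to 8 alone -0.66 and -0.52 (adjusted p = 0.000292 and 0.00287).

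Besides Keap1, Nfe2l2 was the only member called with both siRNAs at the same probe set. The 250 bases before its RefSeq start are therefore shown, on the minus strand at chr2:75704664-75704913 of GRCm38.p6. The capitals mark a match to TGACNNNGC, the core of the antioxidant response element, which was searched on both strands and begins 240 bases before the start. The motif is found in 4071 of 32851 RefSeq windows of 300 bases (12.4%), from 250 bases before to 50 after a gene start, and a match is not shown to be a bound site.
Nfe2l2: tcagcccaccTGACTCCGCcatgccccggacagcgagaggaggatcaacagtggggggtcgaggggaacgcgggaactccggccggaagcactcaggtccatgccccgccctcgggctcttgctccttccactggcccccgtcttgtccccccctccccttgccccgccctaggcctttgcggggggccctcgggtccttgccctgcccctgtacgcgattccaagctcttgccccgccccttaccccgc

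Most of the measured target genes of Nrf2 were higher in the same livers. Of 15 measured genes of a list of known targets, 13 rose with siKeap1-1 and 11 with siKeap1-2, where 4.82% and 2.85% of all genes were called higher. None was called lower. The list holds genes that the study chose from these samples, so its direction is not independent evidence. Nqo1, a quinone reductase, had a log2 difference of 2.22 with siKeap1-1 (standard error 0.10, adjusted p = 8.78e-14 by limma) and 1.91 with siKeap1-2 (adjusted p = 3.01e-12). The carbonyl reductase gene Cbr3 rose by 5.90 and 5.12, and the sulfiredoxin gene Srxn1 by 1.97 and 1.60. Between the siRNAs 1 of the 15 was called higher with siKeap1-1, where 0.121% of all genes were, namely the efflux transporter gene Abcc4 (log2 difference 1.04, adjusted p = 0.0087). On average over the list, the log2 signal was 11.80 to 12.02 with siKeap1-1, 11.50 to 11.80 with siKeap1-2 and 10.31 to 10.65 with siControl.

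The ligase genes did not move together. Cul3, the scaffold, has 5 probe sets, and these differed in size and sign. At the brightest the log2 signal was 11.36, 11.57 and 11.69 (lowest, median and highest) with siKeap1-1, 11.40, 11.43 and 11.48 with siKeap1-2 and 11.45, 11.55 and 11.67 with siControl. The groups overlapped, with differences of 0.01 with siKeap1-1 (95% confidence interval -0.10 to 0.12) and -0.11 with siKeap1-2 (-0.22 to -0.01), neither of them called (adjusted p = 0.938 and 0.212 by limma).
The third probe set by brightness rose with siKeap1-1. Its log2 signal was 7.80, 7.98 and 8.35 with siKeap1-1, 7.38, 7.80 and 8.04 with siKeap1-2 and 7.19, 7.61 and 7.94 with siControl. The difference was 0.40 with siKeap1-1 (standard error 0.11, adjusted p = 0.0182 by limma) and 0.14 with siKeap1-2 (adjusted p = 0.506).
In the other direction, the fifth and dimmest fell with siKeap1-2. Its log2 signal was 6.17, 6.94 and 7.29 with siKeap1-1, 6.18, 6.45 and 6.74 with siKeap1-2 and 6.59, 7.08 and 7.52 with siControl. The difference was -0.59 with siKeap1-2 (standard error 0.15, adjusted p = 0.0162 by limma) and -0.19 with siKeap1-1 (adjusted p = 0.469). The second and the fourth had differences of 0.11 and -0.06 with siKeap1-1, and with siKeap1-2 they had -0.04 and -0.30, none of them called (adjusted p = 0.0542 for the largest). The fourth was called with siKeap1-2 when siKeap1-2 replicate 8 (-0.32, adjusted p = 0.0492) or siControl replicate 2 (-0.34, adjusted p = 0.0252) was left out, and against siControl replicates 4 to 8 alone (-0.40, adjusted p = 0.0132). It was also called with the first residual component (adjusted p = 0.0456), the main axis of spread within the groups, or the mean of fasting-raised genes described further on (adjusted p = 0.0446) as a covariate, and when probe sets under the 40th percentile were left out (adjusted p = 0.0358). The residual component is taken from these same arrays after their group means are removed. It therefore leaves the differences as they are and alters only their standard errors and p-values. Both Cul3 calls were lost with the 18S covariate, with the Gapdh covariate (0.37 with siKeap1-1 and -0.49 with siKeap1-2, adjusted p = 0.0852 and 0.151) and against siControl replicates 1 to 3 alone. All 5 probe sets were higher on average with siKeap1-1 than with siKeap1-2, by 0.12 to 0.39, and none of these differences was called (adjusted p = 0.366 to 0.633).

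**Figure D3:**
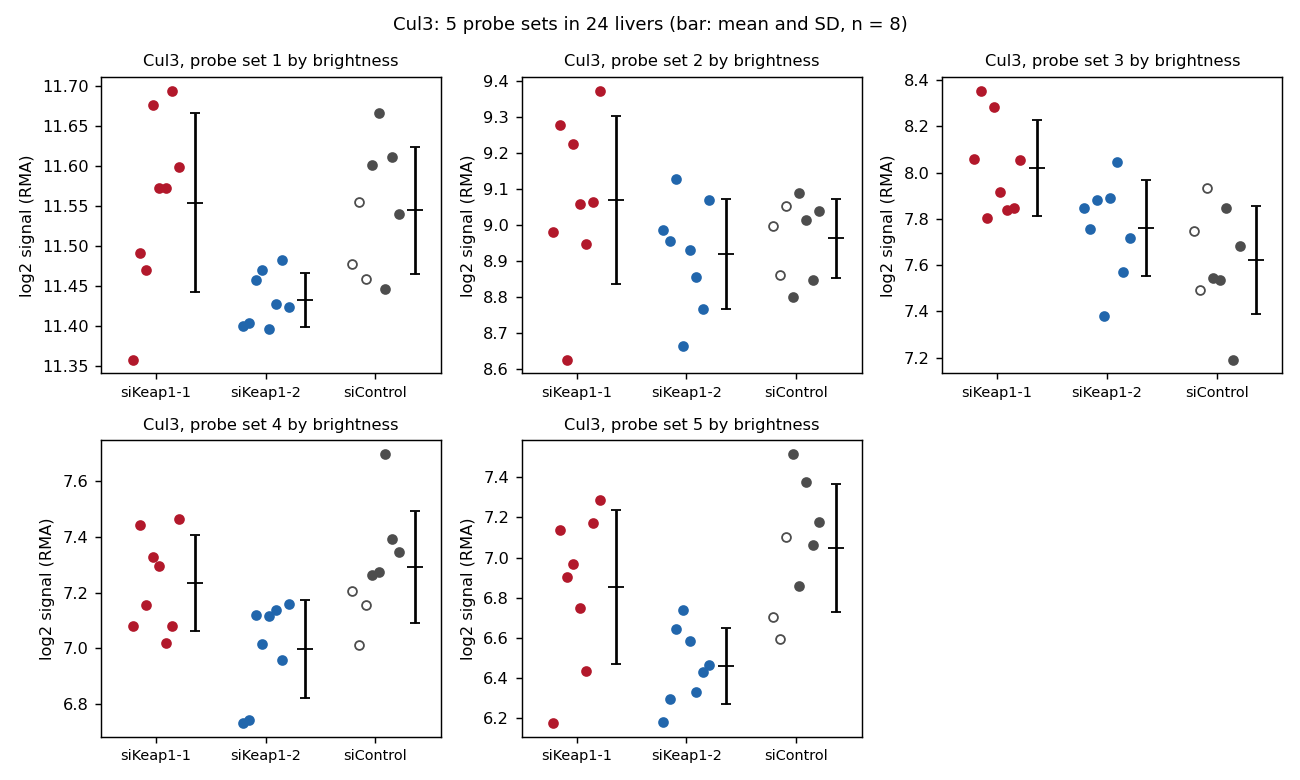
Log2 signal of the 5 Cul3 probe sets in each liver, with siKeap1-1, siKeap1-2 and siControl from left to right. Points are single arrays, open points are siControl replicates 1 to 3, and bars give the mean and SD of 8 arrays. Relative to siControl the means differ by -0.59 to 0.40, and the groups overlap in all panels.

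Rbx1, the RING subunit, was measured by a single dim probe set, since 5 others also name a second gene and were not used. Its log2 signal spanned 4.83 to 5.36 with siKeap1-1, 4.94 to 5.19 with siKeap1-2 and 4.54 to 5.26 with siControl, below the array medians. The differences of 0.09 and 0.12 were within the spread of the arrays (adjusted p = 0.604 and 0.497 by limma).
Among 22 measured genes for other cullins, for Nedd8 conjugation and for the COP9 signalosome, which removes Nedd8 from cullins, 3 were higher with siKeap1-1 and 2 with siKeap1-2, where 4.82% and 2.85% of all genes were called higher, and none was called lower. The genes called with both were Cul5, which encodes another cullin (log2 differences 0.82 and 1.02, adjusted p = 0.0413 and 0.0164), and Nedd8, the ubiquitin-like modifier that activates cullins (0.19 and 0.18, adjusted p = 0.0211 and 0.0395). The COP9 subunit gene Gps1 was 0.26 higher with siKeap1-1 (adjusted p = 0.046) and had a difference of 0.13 with siKeap1-2 (adjusted p = 0.383). The median log2 difference of this list was 0.01 and 0, close to that of all genes, 0.014 and -0.007.
Nrf2 can also be degraded without Keap1, through ligases with the adaptors Btrc, Fbxw11 or Dcaf11 or through Syvn1. Of 12 measured genes of these routes 1 was called higher with siKeap1-1, the adaptor gene Skp1 (log2 difference 0.18, adjusted p = 0.0128), which had 0.11 with siKeap1-2 (adjusted p = 0.164), where 4.82% of all genes were called higher with siKeap1-1. No other was called, and at an unadjusted p under 0.05 it was 3 genes with either siRNA.

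The differences of the small Maf genes from siControl varied in sign and size, and no difference between these genes was tested. Mafk rose with siKeap1-2. Its log2 signal was 9.34, 9.66 and 9.79 (lowest, median and highest) with siKeap1-1, 9.44, 9.79 and 9.97 with siKeap1-2 and 9.12, 9.42 and 9.76 with siControl. All groups overlapped, with the highest control, replicate 4, inside the range of both siRNA groups. The difference was 0.36 with siKeap1-2 (standard error 0.09, adjusted p = 0.0164 by limma) and 0.24 with siKeap1-1 (standard error 0.09, adjusted p = 0.0959), and between siKeap1-1 and siKeap1-2 it was -0.12 (95% confidence interval -0.31 to 0.07). The call with siKeap1-2 was lost with the 18S covariate (0.37, adjusted p = 0.256), against siControl replicates 1 to 3 alone (0.50, adjusted p = 0.0507) and against replicates 4 to 8 alone (0.28, adjusted p = 0.0822). With siKeap1-1 a call was gained without siControl replicate 4 (0.30, adjusted p = 0.0309) or siKeap1-1 replicate 3 (0.28, adjusted p = 0.0446). It was also gained with arrays weighted by their quality in the fit (0.29, adjusted p = 0.0346).
Mafg differed from siControl by 0.14 and 0.10 at its brighter probe set with siKeap1-1 and siKeap1-2, and by -0.10 and -0.03 at the other, none of them called (adjusted p = 0.361 to 0.836). At the brighter one the log2 signal spanned 10.17 to 10.61 with siKeap1-1, 10.16 to 10.48 with siKeap1-2 and 9.94 to 10.50 with siControl, so that the ranges were largely shared.
Maff had lower means with the siRNAs than with siControl, but with a wide spread. Its log2 signal was 6.70, 7.13 and 7.37 with siKeap1-1, 6.81, 7.19 and 8.03 with siKeap1-2 and 6.61, 7.65 and 8.13 with siControl. The differences of -0.50 with siKeap1-1 (standard error 0.18, adjusted p = 0.0911 by limma) and -0.37 with siKeap1-2 (adjusted p = 0.255) were not called. A single control array, siControl replicate 1, held the lowest value of all, 6.61. Without it the differences were -0.64 (adjusted p = 0.0111) and -0.51 (adjusted p = 0.0496) and both were called. Against siControl replicates 4 to 8 alone they were -0.65 (adjusted p = 0.0151) and -0.52 (adjusted p = 0.0534), against replicates 1 to 3 alone -0.25 and -0.13 (adjusted p = 0.663 and 0.9), and with the Gapdh covariate -0.32 and -0.19 (adjusted p = 0.407 and 0.731).

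The small Maf genes are shown because each of the 3 held a match to the same motif. For Mafk the 250 bases before the start are shown, on the plus strand at chr5:139791286-139791535, where the match lies on the opposite strand and begins 13 bases before the start. Mafg (minus strand, chr11:120633741-120633789, opposite strand, 222 bases before the start in the promoter table, but inside the annotated gene at chr11:120625117-120634955) and Maff (plus strand, chr15:79346489-79346537, 112 bases before the first of its 3 annotated starts) are shown with 20 bases on either side. All are RefSeq sequence of GRCm38.p6, with the match in capitals.
Mafk: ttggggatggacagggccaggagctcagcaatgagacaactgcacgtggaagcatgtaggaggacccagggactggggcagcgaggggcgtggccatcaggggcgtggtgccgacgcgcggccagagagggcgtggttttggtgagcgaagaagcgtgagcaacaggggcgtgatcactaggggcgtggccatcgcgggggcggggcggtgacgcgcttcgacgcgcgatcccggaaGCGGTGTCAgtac
Mafg: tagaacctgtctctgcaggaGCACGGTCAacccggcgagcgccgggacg
Maff: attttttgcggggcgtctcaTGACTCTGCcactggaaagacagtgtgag
With Nfe2l2, 4 of the 10 genes held a match, and in the windows of the other 6, Keap1, Nfe2l1, Cul3, Rbx1, Bach1 and Sqstm1, these letters were not found. Counted by window it was 4 of 16, since some genes have several, such as Nfe2l1 with 5 and Maff with 3. The share of 12.4% over all RefSeq windows is likewise by window and not by gene.

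**Figure D4:**
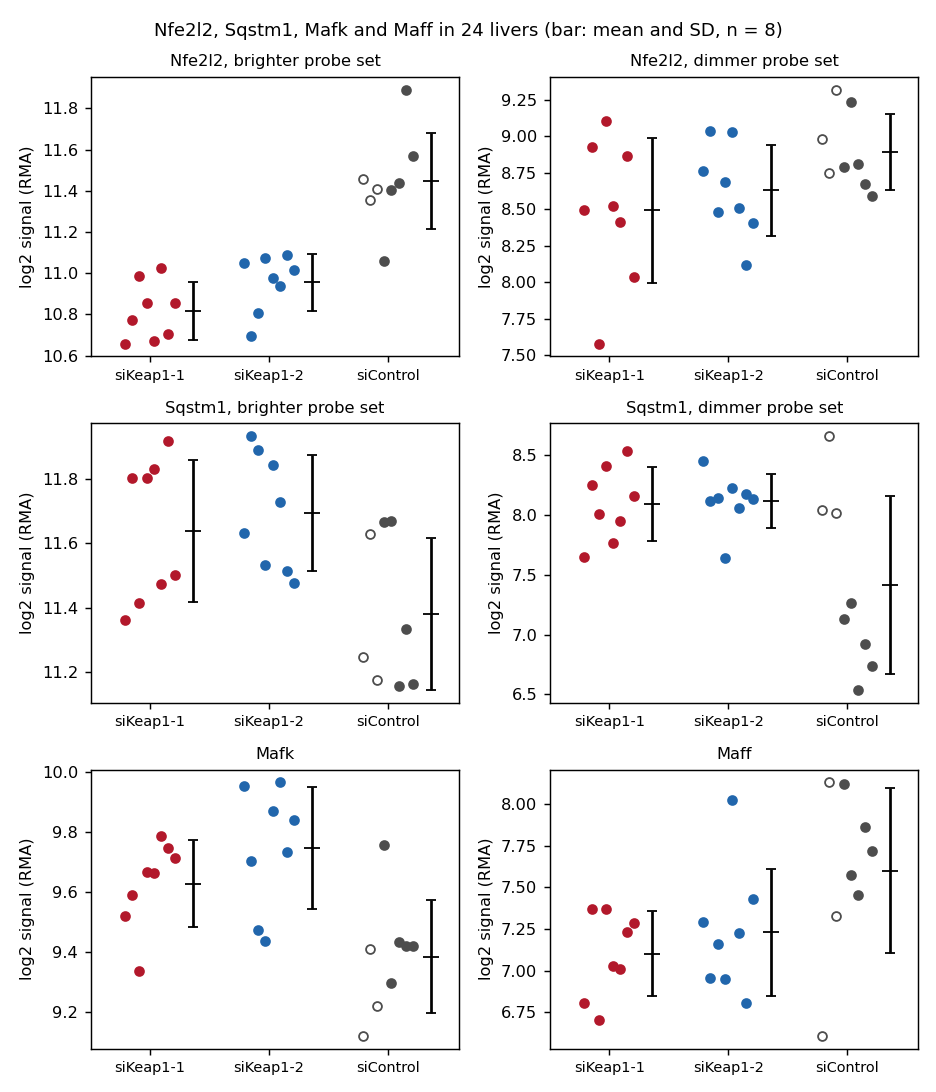
Log2 signal of Nfe2l2, Sqstm1, Mafk and Maff in each liver, with siKeap1-1, siKeap1-2 and siControl from left to right. Points are single arrays, open points are siControl replicates 1 to 3, and bars give the mean and SD of 8 arrays. The brighter Nfe2l2 probe set lies between 10.66 and 11.09 with siRNA and between 11.06 and 11.89 with siControl, and the dimmer Sqstm1 probe set falls into separate control values of 6.54 to 7.26 and 8.02 to 8.66.

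Sqstm1 had higher means with both siRNAs, and whether it passed the threshold depended on the setting. At its brighter probe set the log2 signal was 11.36, 11.65 and 11.92 (lowest, median and highest) with siKeap1-1, 11.48, 11.68 and 11.93 with siKeap1-2 and 11.16, 11.29 and 11.67 with siControl. In each group the arrays were spread over a wide range and the groups overlapped. The difference was 0.26 with siKeap1-1 (standard error 0.10, adjusted p = 0.129 by limma) and 0.31 with siKeap1-2 (standard error 0.10, adjusted p = 0.0744), and -0.06 between siKeap1-1 and siKeap1-2 (95% confidence interval -0.27 to 0.16). With siKeap1-2 a call was gained without siControl replicate 2 (0.35, adjusted p = 0.0463) or replicate 5 (0.36, adjusted p = 0.0493), with arrays weighted by their quality in the fit (0.35, adjusted p = 0.0305) and with the replicate block (0.31, adjusted p = 0.04). It was called with both siRNAs when the first residual component was a covariate (0.26 and 0.31, adjusted p = 0.00103 and 0.000238). There the differences were unchanged by construction, and only the standard error fell, from 0.10 to 0.05. That setting cannot correct for an uneven mix of mice between the groups, so its p-values can be too small.
The dimmer probe set showed how much the controls differed among themselves. Its log2 signal was 7.65 to 8.53 with siKeap1-1 and 7.64 to 8.45 with siKeap1-2. In siControl replicates 4 to 8 it was 6.54 to 7.26, below all siRNA arrays, and in siControl replicates 1 to 3 it was 8.02 to 8.66, within or above their range. These are the controls that also differed in the 18S and Gapdh measures. Over all controls it was 0.68 with siKeap1-1 (standard error 0.23, adjusted p = 0.0599 by limma) and 0.70 with siKeap1-2 (adjusted p = 0.0626). With the 18S covariate it was -0.10 and -0.04 (adjusted p = 0.882 and 0.976), and with the Gapdh covariate 0.22 and 0.23 (adjusted p = 0.594 and 0.644). Both were called with the first residual component (adjusted p = 0.032 and 0.033) and when probe sets under the 40th percentile were left out (adjusted p = 0.0431 and 0.0441). Against siControl replicates 4 to 8 alone it was 1.17 and 1.2 (adjusted p = 1.9e-05 and 1.25e-05), whereas against replicates 1 to 3 alone the direction turned, with -0.15 and -0.12 (adjusted p = 0.734 and 0.86). A call was also gained without any 1 of siControl replicates 1 to 3 (0.76 to 0.86 with siKeap1-1, adjusted p = 0.00535 to 0.0383, and 0.79 to 0.88 with siKeap1-2, adjusted p = 0.0056 to 0.0403), without siKeap1-1 replicate 1 (0.74, adjusted p = 0.05 after rounding) and without siKeap1-2 replicate 4 (0.77, adjusted p = 0.049).

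The spread of Sqstm1 within groups went along with a set of genes known to rise in the liver on fasting. The mean log2 signal of 9 such genes, among them Pck1 for gluconeogenesis and Cpt1a for fatty acid oxidation, was 10.70 to 11.86 with siKeap1-1, 10.99 to 11.86 with siKeap1-2 and 11.20 to 12.34 with siControl. Per unit of this mean, and within groups, Sqstm1 was higher by 0.47 (standard error 0.06) at its brighter probe set. The slope was 0.30 (standard error 0.08) for Nfe2l1 and for Mafg, 0.28 (standard error 0.07) for Bach1 and 0.50 (standard error 0.18) for Maff, whereas it was -0.22 (standard error 0.09) for Nfe2l2 and 0.22 (standard error 0.12) for Keap1, all at the brightest probe set. The dimmer probe sets went the other way for Nfe2l2 (0.51, standard error 0.16), Keap1 (-0.15, standard error 0.13), Bach1 (-0.14, standard error 0.11) and Mafg (-0.04, standard error 0.08). The labels do not give the feeding state, and the arrays were not divided by it. The mean of 8 genes known to rise on feeding, such as Fasn for fatty acid synthesis, fell into separate levels in each group (11.05 to 11.13 and 11.99 to 12.31 with siKeap1-1, 10.91 to 11.24 and 11.98 to 12.32 with siKeap1-2, 11.28 to 11.64 and 12.72 to 13.08 with siControl). The lower level held replicates 2, 4, 5 and 7 with siKeap1-1 and replicates 2, 3, 5 and 6 with siKeap1-2. With siControl it held only replicates 2, 4 and 5, so that the levels were not balanced there. The slopes are therefore a description only, since they can stand for a step between sets of mice, and the relation within such sets was not tested. The feeding-raised genes also differed between groups, with a mean of 11.59 with siKeap1-1, 11.62 with siKeap1-2 and 12.35 with siControl. Of these 8 genes 2 were called lower with either siRNA, where 4.67% and 3.75% of all genes were. They were Pnpla3 (log2 differences -1.87 and -1.93) and Elovl6 (-1.13 and -1.01). The cause of this difference was not tested.
When the mean of the fasting-raised genes entered the fit as a covariate, which was added after the data had been seen, Sqstm1 rose by 0.41 with siKeap1-1 (standard error 0.06, adjusted p = 0.000104 by limma) and by 0.39 with siKeap1-2 (adjusted p = 0.000202) at its brighter probe set. The covariate itself had a mean of 11.31 with siKeap1-1, 11.47 with siKeap1-2 and 11.63 with siControl. Of its 9 genes 1 was called lower with siKeap1-1, Ppargc1a (log2 difference -0.56, adjusted p = 0.00899 by limma), where 4.67% of all genes were. None was called with siKeap1-2. The covariate was therefore not free of group differences, and the differences adjusted for it can carry part of them. In this setting Nfe2l1 (0.24, adjusted p = 0.0303) and Mafg (0.24, adjusted p = 0.036) were also called with siKeap1-1, and the Keap1 and Nfe2l2 calls at the brighter probe sets remained.

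**Figure D5:**
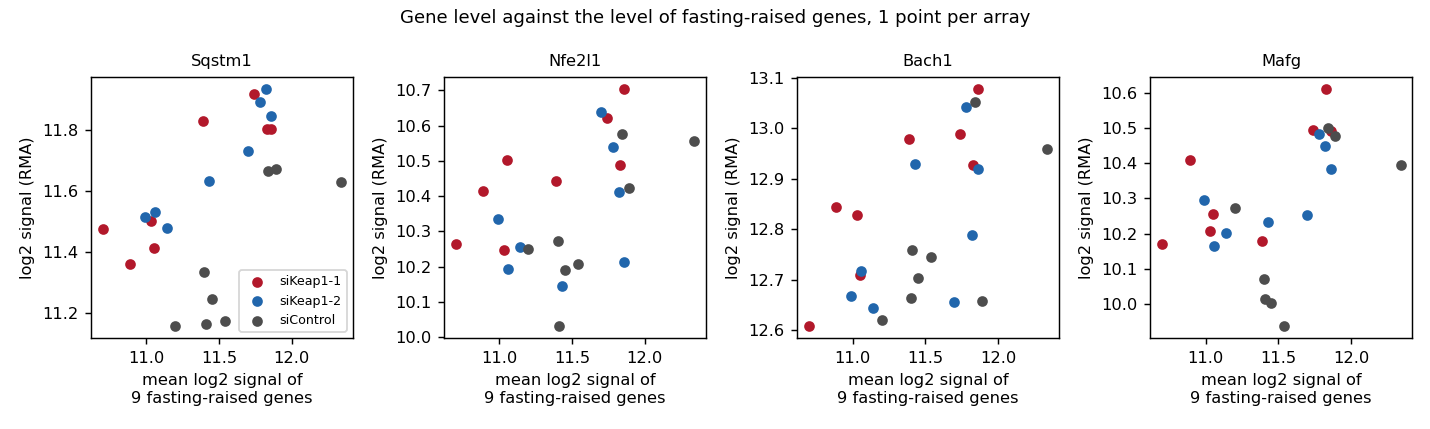
Log2 signal of Sqstm1, Nfe2l1, Bach1 and Mafg (vertical axes, brightest probe set) against the mean log2 signal of 9 fasting-raised genes (horizontal axes). Each point is 1 array, with siKeap1-1 in red, siKeap1-2 in blue and siControl in grey. Within groups Sqstm1 is higher by 0.47 per unit, and at a like horizontal position most siRNA points of Sqstm1 lie above the siControl points.

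Of 10 measured genes for other autophagy receptors and for Atg8 proteins, which tether the receptors to the autophagosome, 1 was called higher and 1 lower with siKeap1-1 (4.82% and 4.67% of all genes), and 1 lower with siKeap1-2 (3.75% of all genes). Wdfy3, which encodes a scaffold that binds p62, fell with both siRNAs (log2 differences -0.27 and -0.28, adjusted p = 0.00835 and 0.00921 by limma). The Atg8 gene Gabarap was 0.16 higher with siKeap1-1 (adjusted p = 0.0333) and had 0.12 with siKeap1-2 (adjusted p = 0.118). Across all 24 arrays the genes whose signal followed Sqstm1 most closely were Map1lc3b (Pearson r = 0.922), Gsto1 (0.91), 2410006H16Rik (0.904), Gabarapl1 (0.898) and 1810044D09Rik (0.893), among the brightest probe sets of all genes. These correlations describe arrays that share group differences and a common normalization.
The same measure over 24 arrays was highest for Keap1 with Hspa2 (Pearson r = 0.891), Cyp17a1 (0.846), Epas1 (0.842), Entpd8 (0.841) and 4632427E13Rik (0.839). For Nfe2l2 it was highest with Tmem25 (0.887), Fkbp14 (0.88), Rnf24 (0.878), Icos (0.871) and Nfat5 (0.87).

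The competing and the related factors were near the controls. Bach1, the repressor, had a log2 signal of 12.61 to 13.08 with siKeap1-1, 12.64 to 13.04 with siKeap1-2 and 12.62 to 13.05 with siControl at its brighter probe set. The ranges nearly coincided, with differences of 0.10 (95% confidence interval -0.06 to 0.26) and 0.03 (-0.14 to 0.19). The dim Bach1 probe set, at the 20.4th percentile, had 0.23 and 0.25 (adjusted p = 0.179 and 0.172 by limma). Nfe2l1 had a log2 signal of 10.25, 10.47 and 10.70 (lowest, median and highest) with siKeap1-1, 10.14, 10.30 and 10.64 with siKeap1-2 and 10.03, 10.26 and 10.58 with siControl. The groups overlapped and the differences of 0.15 and 0.03 were not called (adjusted p = 0.334 and 0.9). None of 5 measured genes for the processing of the Nrf1 protein, such as Ngly1 and Fbxw7, was called by limma with either siRNA, and 1 had an unadjusted p under 0.05 with each.
More distant relatives with low signals fell. Nfe2, which encodes the founding member of this factor family, known from blood cell formation, had a mean log2 signal of 4.86 with siKeap1-1, 5.21 with siKeap1-2 and 6.08 with siControl. It fell with both siRNAs (log2 differences -1.22 and -0.87, adjusted p = 0.00168 and 0.0289 by limma). Nfe2l3 fell with siKeap1-1 (-0.83, adjusted p = 0.0405) and had -0.42 with siKeap1-2 (adjusted p = 0.376). These were 2 of 5 measured relatives with siKeap1-1 and 1 of 5 with siKeap1-2, where 4.67% and 3.75% of all genes were called lower, and Bach2, Maf and Nrl were not called.
A few markers of macrophages and lymphocytes were called in the same arrays, while most were not. Of 10 Kupffer cell and macrophage markers, 2 were lower with siKeap1-1 (Timd4, log2 difference -1.52, and Vsig4, -0.60), while with siKeap1-2 Timd4 was lower (-1.16) and Marco higher (1.49). Of all genes 4.67% were called lower with siKeap1-1, and 3.75% lower and 2.85% higher with siKeap1-2. Their mean log2 signal was 8.49 to 9.35 with siKeap1-1, 8.55 to 9.69 with siKeap1-2 and 8.83 to 9.58 with siControl. Of 7 lymphocyte markers 1 was lower with siKeap1-1 (Cd4, -0.55), beside the same 4.67%. The mean of this list was 6.45 to 6.89 with siKeap1-1, 6.52 to 7.07 with siKeap1-2 and 6.35 to 7.44 with siControl. Their part in the results for Nfe2 and Nfe2l3 was not tested.
Of 10 immediate early genes, which respond within a short time to stress, as Maff can, none was called by limma with siKeap1-1 and 1 with siKeap1-2, Atf3 (0.43, adjusted p = 0.0219), where 2.85% of all genes were called higher. At an unadjusted p under 0.05 it was 4 and 3 genes, and the mean of the list was 7.66 to 8.35 with siKeap1-1, 7.81 to 8.37 with siKeap1-2 and 7.86 to 8.50 with siControl.
Among 13 measured genes for other proteins that bind Keap1 or Nrf2, 2 fell with siKeap1-1, the kinase genes Ikbkb (log2 difference -0.29, adjusted p = 0.00764 by limma) and Tbk1 (-0.24, adjusted p = 0.00778). With siKeap1-2 these had -0.21 (adjusted p = 0.0659) and -0.18 (adjusted p = 0.0602), and the coactivator gene Ep300 fell instead (-0.21, adjusted p = 0.0354). Of all genes 4.67% and 3.75% were called lower. None of the list was called higher, and its median log2 difference was -0.04 and -0.05.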

How the data were processed

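Liver RNA was hybridised to Affymetrix whole genome arrays for the mouse, and the deposited values are log2 signals that the authors made with RMA (version not given in the sources used here), which corrects the background, quantile normalizes the arrays and summarizes the probes of a probe set. Values in different arrays are therefore set to a common distribution, and changes are relative to it. The annotation named 1 gene for 34945 of 45037 probe sets, 932 with several genes and 9160 with none were given no gene, and 64 manufacturer controls were not tested. Groups were taken from the labels (n = 8 mice each). Tests were made with limma 3.58.1 under R 4.3.3 (lmFit, eBayes, 1 fit of 3 groups, contrasts of group means, two-sided), and the brightest probe set over all arrays stood for a gene where 1 value is given. The procedure was tested on simulated data. The labels name a single factor, so a two-way analysis was not fitted.

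The members and the gene lists were chosen with earlier results of these data known. Named from the lists were up to 4 genes with the largest change among those called in either comparison with siControl, and the 5 genes most like Keap1, Nfe2l2 and Sqstm1 by Pearson correlation. The genes Bach2, Maf, Nrl, Btrc, Fbxw11, Dcaf11, Syvn1, Ngly1, Fbxw7, Pck1, Cpt1a and Fasn are named as examples of their lists only. Alternatives were the normalization, moderation, array weights, dim probe sets (under the 40th percentile), the samples in the fit, covariates, the replicate number as a block, each array left out, the mean over probe sets and the thresholds. The number of arrays limits the precision. Promoter sequences are from RefSeq (GRCm38.p6), with a window for all 10 genes, and figures were drawn with matplotlib 3.10.9.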

Additional observations from a re-analysis of the deposited data

Results flagged for a closer look

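In 57 groups of 8 values, 2 had a value far from the others by Dixon's criterion at 95%, where chance passes 5% of groups. At the dimmer Keap1 probe set siKeap1-2 replicate 3 had a log2 signal of 4.64, while the other siKeap1-2 arrays had 4.93 to 5.19. At the dimmer Mafg probe set siControl replicate 1 had 9.23, while the other controls had 9.51 to 9.69. Outside the genes tested, the 18S ribosomal RNA signal had a mean of 10.91 with siKeap1-1, 10.86 with siKeap1-2 and 9.67 with siControl. The log2 difference was 1.23 with siKeap1-1 (p = 0.00435 by an exact two-sided permutation test) and 1.18 with siKeap1-2 (exact p = 0.00155). The Gapdh 3' minus 5' difference was 1.17 with either siRNA and 1.31 with siControl (exact permutation p = 0.026 and 0.0174).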

How the results depend on the processing

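The Keap1 and Nfe2l2 differences from siControl at the brighter probe sets kept their direction in all settings run. At an adjusted p under 0.05, of these calls only that of Nfe2l2 with siKeap1-2 was lost, with the 18S covariate (adjusted p = 0.136 by limma), while at a fold over 2 neither Nfe2l2 difference passed. The cause of the shifts below was not tested. With 18S as a covariate, 1324 probe sets were called with siKeap1-1 (2 of them members) and 303 with siKeap1-2 (1 member). Against siControl replicates 1 to 3 alone it was 1540 and 358 (2 members each), where fewer arrays entered, and against replicates 4 to 8 alone 4303 with siKeap1-2. With a fold over 2 and an unadjusted p under 0.01, 278, 251 and, between the siRNAs, 26 probe sets passed, of which 1, 1 and 0 were members. With the Gapdh 3' minus 5' difference as a covariate, chosen after seeing the data, 2 and 3 members were called. Of all probe sets it was 3059 with siKeap1-1 and 830 with siKeap1-2 (6.79% and 1.84%). With the level of the fasting-raised genes as a covariate 8 and 8 members were called beside 5588 and 4052 of all probe sets (12.4% and 9%), and 148 probe sets between the siRNAs. With siKeap1-2, 8 members were called with array weights (7.7% of all probe sets) and with the first residual component as a covariate (8.68% of all), which also gave 128 probe sets between the siRNAs.

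Among values that stand for a gene, its brightest probe set or the mean over its probe sets, small differences that were not called changed sign. For siKeap1-1 these were Cul3 with the 18S covariate and against siControl replicates 4 to 8 (-0.02 each) and Rbx1 with the 18S covariate (-0.07) and against replicates 1 to 3 (-0.03). With siKeap1-2 they were Rbx1 (-0.03) and Bach1 (-0.04) with the 18S covariate and Bach1 against replicates 1 to 3 (-0.01). Between the siRNAs Mafg had -0.01 when its probe sets were averaged, and Sqstm1 had 0.02 with the fasting-raised genes as a covariate. Dimmer probe sets changed sign as well. That of Sqstm1 went from 0.68 and 0.70 to -0.10 and -0.04 with the 18S covariate, and to -0.15 and -0.12 against replicates 1 to 3. Smaller differences at dimmer probe sets of Cul3 and Mafg also changed sign. As means over probe sets Sqstm1 was called with both siRNAs (0.47 and 0.51, adjusted p = 0.0321 and 0.0257 by limma), and Keap1 between them was not (-0.37, adjusted p = 0.0814).

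With 1 array left out at a time, 3 to 5 members were called with siKeap1-1, 4 to 8 with siKeap1-2 (8 without siControl replicate 2) and 1 between the siRNAs. The counts over all probe sets were 3140 to 4361, 1824 to 3295 (the lowest without siKeap1-2 replicate 2) and 36 to 79 (36 to 47 without siKeap1-1 replicate 1 or 5 or siKeap1-2 replicate 1, 2 or 5). Cul3 with siKeap1-1 then ranged from -0.01 to 0.04, and with siKeap1-2 Bach1 and Nfe2l1 from -0.01 to 0.07. The replicate numbers 1 to 8 did not pair the arrays. Deviations of arrays of the same number from their group means correlated between -0.17 and 0.28, and 9 of 24 such pairs were above 0.1. With the replicate block 44 probe sets were called between the siRNAs, and Sqstm1 was called with siKeap1-2 (0.31, adjusted p = 0.04).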
